A study of Mus musculus with 8 samples.

Results

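Edn1, Ednra, Ednrb, Ece1, Agt, Ace, Agtr1a, Agtr2 and Uts2b are 9 genes of the endothelin, angiotensin and urotensin systems, out of 19096 genes named on the array. Their members were found as every non-control probe whose accession belongs to 1 of these genes, which gave 13 probes. Ednra, Ednrb, Ace and Agtr1a have 2 probes each and the other 5 genes have 1. Hearts of mouse embryos at E18.5, late in gestation, were measured on one-color Agilent arrays, 1 heart per array, with 4 wild-type (WT) hearts and 4 hearts labelled SIRT1 KO. All embryos carry the strain label C57BL/6, given as C57BL/6J in the study's methods, and the mice were kept on a chow diet. SIRT1 KO is a whole-body germ-line knockout, so a change in the heart can come from the loss of SIRT1 in any tissue of the embryo, and the embryos came from crosses of heterozygous parents. SIRT1 is an NAD-dependent protein deacetylase, and the arrays compare hearts labelled SIRT1 KO with WT hearts shortly before birth.

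The 3 systems are short peptides, the proteases that cut them from larger precursors, and receptors that couple to G proteins. Endothelin-1, from the precursor encoded by Edn1, is trimmed by the metallopeptidase endothelin-converting enzyme 1 (Ece1) and acts on the receptors Ednra and Ednrb. In the embryo this system is known for its part in the neural crest, the outflow tract and the great arteries. Angiotensinogen (Agt), made mainly by the liver, is cut by renin and then by angiotensin-converting enzyme (Ace) to angiotensin II, which constricts vessels through Agtr1a, while Agtr2 is abundant in fetal tissue. Uts2b encodes the precursor of urotensin II-related peptide, a ligand of the urotensin receptor Uts2r.

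Each value below is the log2 of a probe's processed intensity minus the log2 of the 75th percentile of its array, so that 0 is the 75th percentile and a difference of 1 is a factor of 2 between hearts. A difference is the mean of the hearts labelled SIRT1 KO minus the mean of the WT hearts, with its standard error (SE) from limma. Probes differ in how they bind, so no probe is set against another in level. The 9 genes were chosen with the genotype differences of these same hearts known, and Uts2b was selected on its difference. The members' differences are therefore given as a description, with no test. The 4 values of a genotype come from 4 hearts, and the number of arrays limits the precision. In whole hearts, fewer cells of a type and less RNA per cell cannot be told apart.

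Each genotype was hybridized on a slide of its own and scanned on its own day, and a slide or scan effect and the genotype cannot be told apart. Between 24497 and 26739 probes were well above background per array. One Sirt1 probe (A_52_P358612) was higher in the arrays labelled SIRT1 KO, by a log2 fold change of 0.54 (SE 0.11, limma adjusted p = 0.0324), and the other (A_51_P141152) differed by -0.11 (SE 0.11, limma adjusted p = 0.589). Neither was lower past the threshold, so the genotypes are taken from the labels. Whether these probes lie in the deleted part is not analysed here. The defining markers of the heart were in place. All 8 cardiomyocyte, 9 endothelial, 4 endocardial, 9 mural and 8 fibroblast genes looked at were well above background in every heart. With limma 0 of these 38 passed the threshold, 5 had an unadjusted p under 0.05, and the methods' analysis of variance also called 0.

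Of the 13 member probes, 12 were well above background in all 8 hearts and 1, an Ace probe, in none. Of these 12, 1 was past the limma threshold (adjusted p under 0.05), against 4.88% of all probes tested, and nothing is read from that count because the genes were chosen by this comparison. The genotypes did not overlap on 2 of the 12 probes, one of Uts2b and one of Ednrb, against 13.7% of all probes tested. On the brightest probe of each gene, 2 genes were higher and 7 lower with the SIRT1 KO label, and the median difference was -0.05, against 0.01 over all probes tested. Apart from Uts2b the differences ran from -0.45 to 0.50.

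**Figure D1:**
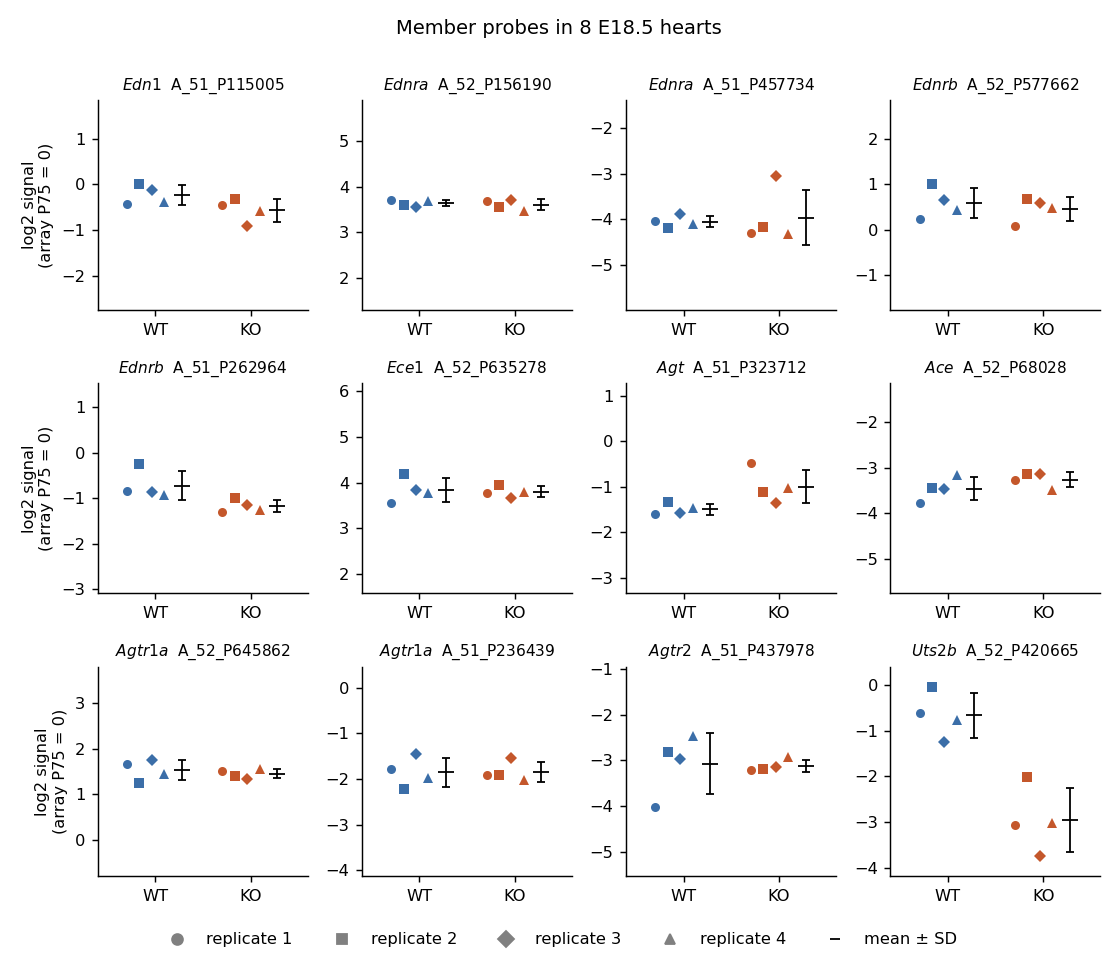
Log2 signal of the 12 member probes well above background, relative to the 75th percentile of the array (0), in 4 WT (blue) and 4 SIRT1 KO hearts (orange), with the mean and SD in black. Every panel spans the same range of log2 units, and the Uts2b values are the only ones with a wide gap between genotypes.

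Uts2b stood apart from the other members. Its RNA was lower in every heart labelled SIRT1 KO than in any WT heart. The promoter window of Uts2b is printed first because this gene carries the main difference, with the windows of Edn1 and Agt, the precursor genes of the other systems, for comparison. Each holds 300 bases, 250 before the start site and 50 after it, from RefSeq on GRCm38.p6, written 5′ to 3′ on the gene's strand. The Uts2b window is chr16:27370190-27370489 on the minus strand, the Edn1 window chr13:42301226-42301525 on the plus strand, and the Agt window chr8:124569657-124569956 on the minus strand. Capitals mark matches, on either strand, to 3 core promoter motifs, the TATA box as TATAAA, the box known by its letters CCAAT, and the GC box as GGGCGG.
Uts2b: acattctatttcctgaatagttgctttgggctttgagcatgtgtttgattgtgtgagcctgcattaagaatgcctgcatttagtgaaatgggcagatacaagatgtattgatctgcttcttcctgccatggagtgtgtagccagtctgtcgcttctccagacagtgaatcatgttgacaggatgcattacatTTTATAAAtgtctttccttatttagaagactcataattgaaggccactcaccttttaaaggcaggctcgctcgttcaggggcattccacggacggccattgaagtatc
Edn1: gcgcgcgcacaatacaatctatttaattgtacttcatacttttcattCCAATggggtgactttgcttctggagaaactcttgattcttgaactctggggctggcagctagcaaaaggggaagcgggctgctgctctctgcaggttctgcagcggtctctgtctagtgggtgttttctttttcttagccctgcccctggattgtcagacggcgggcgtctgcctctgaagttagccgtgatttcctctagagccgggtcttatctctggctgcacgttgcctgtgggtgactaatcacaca
Agt: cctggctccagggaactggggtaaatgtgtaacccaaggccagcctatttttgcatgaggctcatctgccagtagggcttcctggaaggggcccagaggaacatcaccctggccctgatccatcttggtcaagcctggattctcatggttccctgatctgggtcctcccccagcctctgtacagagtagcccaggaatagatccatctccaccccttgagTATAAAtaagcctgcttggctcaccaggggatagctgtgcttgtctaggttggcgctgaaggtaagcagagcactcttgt

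The Uts2b window holds TATAAA with its first base at -56 from the start site, overlapped by a match on the opposite strand that begins at -58. The Agt window holds TATAAA at -30, and the Edn1 window holds CCAAT at -203 and no match to TATAAA. No window of the 3 matches GGGCGG. Among all 32851 promoter windows of this length, 13.6% hold the TATA box motif, 37.4% the CCAAT motif and 35.7% the GC box motif. Of the 9 genes, 8 have a window in this table. A match is a description of these letters only.

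The Uts2b probe (A_52_P420665) read -0.60, -0.05, -1.24 and -0.76 in WT replicates 1 to 4, and -3.06, -2.02, -3.74 and -3.02 in SIRT1 KO replicates 1 to 4. The highest heart labelled SIRT1 KO, replicate 2, lay below the lowest WT heart, replicate 3. Before scaling, the intensities ran from 429 to 997 units in the WT hearts and from 58.1 to 221 in the hearts labelled SIRT1 KO, all well above background. The difference was -2.30 (SE 0.36), a 4.92-fold lower level, from a mean of -0.66 ± 0.49 (SD, n = 4) to -2.96 ± 0.71 (SD, n = 4). Only 1 of the 25616 probes tested had a lower fitted difference, a rank that is no support because Uts2b was selected on this difference. Dropping single hearts, the Uts2b difference lay between -2.61, without SIRT1 KO replicate 2, and -2.04, without SIRT1 KO replicate 3. It was smaller, -1.64, with the normexp background correction.

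Uts2b did not vary alone among the hearts. Replicate 2 had the highest Uts2b value of its genotype in both groups, and in both groups it also had the highest summed signal of the atrial, endocardial and fibroblast markers. The summed linear signal of 8 atrial markers (Myl7, Myl4, Nppa, Sln, Bmp10, Kcnj3, Gja5 and Nr2f2), a list made after the values were seen, was 474, 720, 493 and 517 times the 75th percentile in WT replicates 1 to 4. It was 331, 704, 443 and 365 in SIRT1 KO replicates 1 to 4. With limma and with the methods' analysis of variance 0 of the 8 passed, 0 had an unadjusted p under 0.05, and their differences ran from -0.71 to 0.23. SIRT1 KO replicate 2 had an atrial sum above 3 of the 4 WT hearts and less Uts2b RNA than any WT heart. The other hearts with that label had atrial sums below every WT heart, and 7 of the 8 atrial markers were lower on average. Uts2b and the atrial sum had r = 0.63 over the 8 hearts and 0.70 within the genotypes. Without WT replicate 2 and SIRT1 KO replicate 2 the Uts2b difference was -2.41. The endocardial sum (4 genes) was 5.85 in WT replicate 2 and 3.48 to 4.20 in the other WT hearts, and 4.50 in SIRT1 KO replicate 2 and 3.49 to 4.01 in the others with that label. The fibroblast sum (8 genes) was 343 and 338 in these 2 hearts. The cardiomyocyte sum (8 genes) was 1190 to 1290 in the WT hearts and 1260 to 1440 in the hearts labelled SIRT1 KO, where replicate 3, the lowest in Uts2b, had the most. The part of these cell types in the Uts2b difference was not tested.

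**Figure D2:**
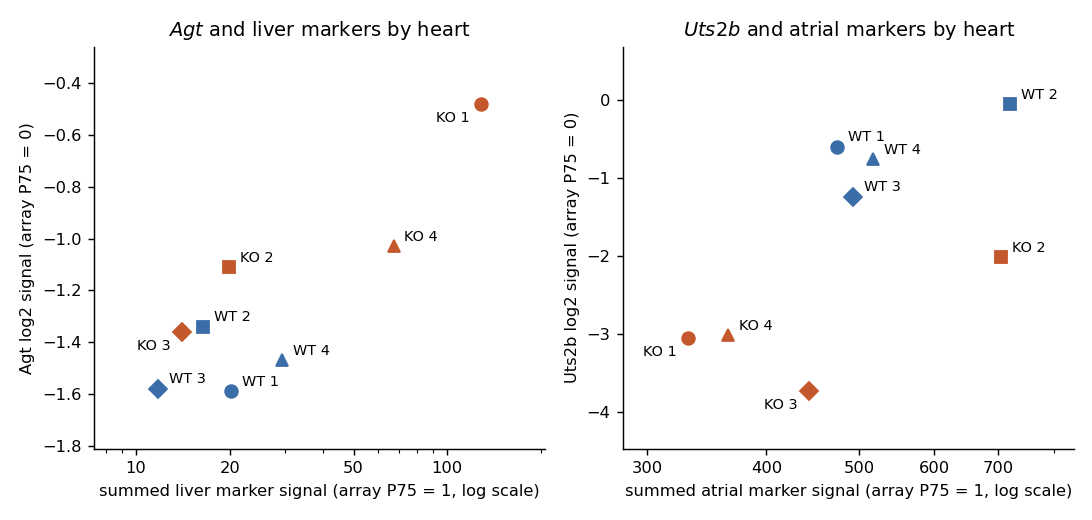
Left, Agt log2 signal against the summed linear signal of 8 liver markers in each heart; right, Uts2b log2 signal against the summed signal of 8 atrial markers, both sums on a log axis and relative to the 75th percentile of the array. SIRT1 KO replicates 1 and 4 have the highest liver sums (128 and 67.2). The hearts labelled SIRT1 KO lie below the WT hearts in Uts2b, at atrial sums of 331 to 704 against 474 to 720 in the WT hearts.

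The genes beside Uts2b on chromosome 16 were looked at on both sides, 3 protein-coding genes each way in the RefSeq order. Gmnc has no named probe, and the Ostn probe was well above background in no heart. Of the 10 tested probes of the other 4 genes, Il1rap, Ccdc50, Fgf12 and Mb21d2, 0 passed with limma or with the methods' analysis of variance, and 4 had an unadjusted p under 0.05. The 3 probes of Ccdc50, the nearest gene on one side, differed by -0.08 to -0.19. Fgf12, which encodes an intracellular FGF homolog that binds sodium channels, had larger differences with wide spread. On all 4 of its probes the fitted difference was negative, from -1.60 to -0.96. Its brightest probe (A_51_P126337) read -0.30, 0.59, -0.36 and -0.47 in the WT hearts and -2.80, 0.14, -1.74 and -1.90 in the hearts labelled SIRT1 KO. Replicate 2 was the highest on this probe too, in both genotypes, and its value in the SIRT1 KO group lay above 3 of the 4 WT values. The difference was -1.44 (SE 0.55, limma adjusted p = 0.173).

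The ligand gene of the endothelin system was slightly lower, with overlap. Edn1 (A_51_P115005) read -0.44, 0.01, -0.12 and -0.38 in the WT hearts and -0.45, -0.33, -0.92 and -0.58 in the hearts labelled SIRT1 KO. SIRT1 KO replicate 2 lay above WT replicates 1 and 4, and replicate 3 was the lowest of all. The difference was -0.34 (SE 0.15). It was -0.22 without SIRT1 KO replicate 3, -0.47 with median scaling and -0.56 without scaling. Its sign held in all 19 alternative analyses.

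Ece1, the converting enzyme, was nearly level between the genotypes. Its probe (A_52_P635278) read 3.55, 4.20, 3.84 and 3.77 in the WT hearts and 3.78, 3.95, 3.66 and 3.80 in the hearts labelled SIRT1 KO. Replicate 2 was the highest of each genotype, as for Uts2b. The difference was -0.04 (SE 0.13), with a sign that turned in 4 of the 19 alternatives.

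The 2 receptors differed by probe. Ednra, the receptor that constricts vessels and acts in neural crest cells, read 3.72, 3.61, 3.56 and 3.68 in the WT hearts and 3.70, 3.55, 3.71 and 3.48 in the others on its brighter probe (A_52_P156190). These values overlapped throughout, with a difference of -0.03 (SE 0.08). On the dimmer probe (A_51_P457734) the WT hearts lay between -4.18 and -3.89, and 3 of the hearts labelled SIRT1 KO between -4.32 and -4.16, while replicate 3 stood at -3.05. The difference there was 0.10 (SE 0.26) with that heart and -0.21 without it.

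Ednrb, the receptor found on endothelium and on neural crest derivatives, was lower on its dimmer probe. That probe (A_51_P262964) read -0.84, -0.26, -0.87 and -0.94 in the WT hearts and -1.31, -1.0, -1.16 and -1.25 in the hearts labelled SIRT1 KO. The genotypes did not overlap, but only 0.06 separated WT replicate 4 from SIRT1 KO replicate 2, and WT replicate 2 was far above the other WT hearts. The difference was -0.45 (SE 0.15), and -0.29 without WT replicate 2. On the brighter probe (A_52_P577662) the values were 0.24, 1.0, 0.65 and 0.43 in the WT hearts against 0.08, 0.67, 0.58 and 0.48. There the genotypes overlapped and the difference was -0.13 (SE 0.18), or 0.01 without WT replicate 2.

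**Figure D3:**
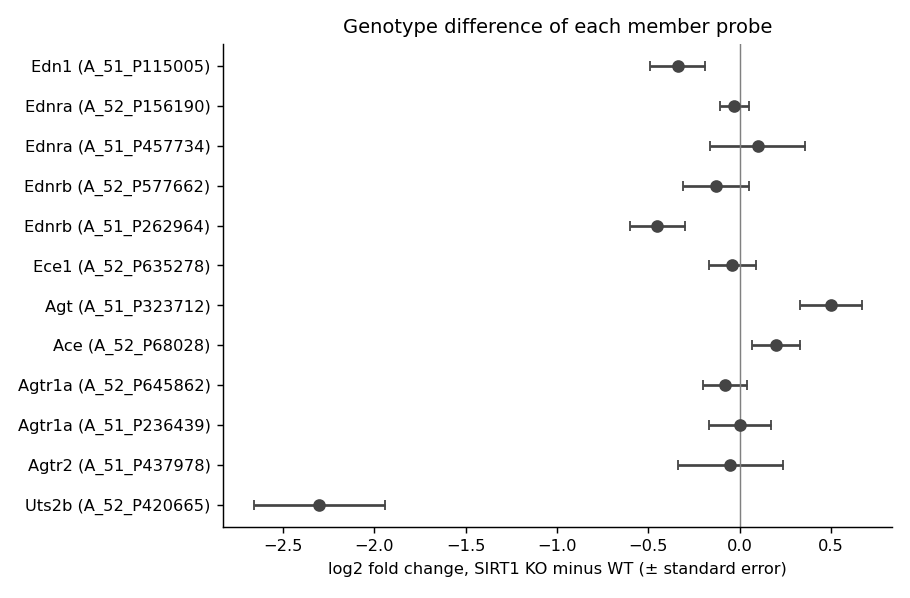
Log2 fold change of each of the 12 member probes, hearts labelled SIRT1 KO minus WT, with the standard error from limma as bars. Uts2b lies at -2.30, and the other 11 probes lie between -0.45 and 0.50.

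Agt, the precursor of the angiotensins, was higher in the hearts labelled SIRT1 KO. Its probe (A_51_P323712) read -1.59, -1.34, -1.58 and -1.47 in the WT hearts and -0.48, -1.11, -1.36 and -1.03 in the hearts labelled SIRT1 KO. Replicate 1 was the highest, and replicate 3 lay just under the highest WT heart. The difference was 0.50 (SE 0.17), a 1.42-fold higher level. It was 0.33 without SIRT1 KO replicate 1 and 0.28 without scaling.

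RNA of liver genes moved with Agt in some hearts. The summed signal of the 8 tested liver markers (Alb, Afp, Apoa1, Apoa2, Ahsg, Fgb, Fgg and Trf) was 20.2, 16.4, 11.8 and 29.5 in the WT hearts and 128, 19.9, 14.0 and 67.2 in the hearts labelled SIRT1 KO. All 8 markers were well above background in every heart and higher on average in the hearts labelled SIRT1 KO, by 0.91 to 1.55. With limma and with the methods' analysis of variance 0 of them passed, and 1, Trf, had an unadjusted p under 0.05. Ttr was well above background in 2 hearts labelled SIRT1 KO and no WT heart and was not tested. The hearts with the most liver RNA, SIRT1 KO replicates 1 and 4, were also those with the most Agt RNA. Without both, the Agt difference was 0.26 (SE 0.12). SIRT1 KO replicate 2, whose liver sum was within the WT range, had an Agt value of -1.11, above every WT heart. SIRT1 KO replicate 3, with a liver sum also in that range, read -1.36, below WT replicate 2. Agt and the liver sum had r = 0.85 over the 8 hearts and 0.83 within the genotypes. The part of liver RNA in the Agt difference was not tested.

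Ace, the enzyme that makes angiotensin II, was measured by 1 of its 2 probes. On that probe (A_52_P68028) the WT hearts read -3.77, -3.44, -3.47 and -3.16 and the hearts labelled SIRT1 KO -3.27, -3.14, -3.15 and -3.49. The values overlapped, with a difference of 0.20 (SE 0.13). The other Ace probe (A_52_P72297) was not well above background in any heart, and no fold is given for it.

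The angiotensin receptors showed no gap between the genotypes on any probe. Agtr1a read 1.66, 1.25, 1.74 and 1.45 in the WT hearts and 1.50, 1.40, 1.33 and 1.56 in the hearts labelled SIRT1 KO on its brighter probe (A_52_P645862), a difference of -0.08 (SE 0.12). On its dimmer probe (A_51_P236439) the WT hearts lay between -2.22 and -1.45 and the others between -2.03 and -1.54, a difference of 0.00 (SE 0.17). Agtr2 (A_51_P437978) read -4.03, -2.82, -2.98 and -2.46 in the WT hearts and -3.22, -3.19, -3.15 and -2.93 in the hearts labelled SIRT1 KO. The difference was -0.05 (SE 0.29) and had no settled sign, since it ran from -0.37 without WT replicate 1, the lowest value of all, to 0.16 without WT replicate 4. Agtr2 varied more among the WT hearts (SD 0.68) than among the hearts labelled SIRT1 KO (SD 0.13).

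**Figure D4:**
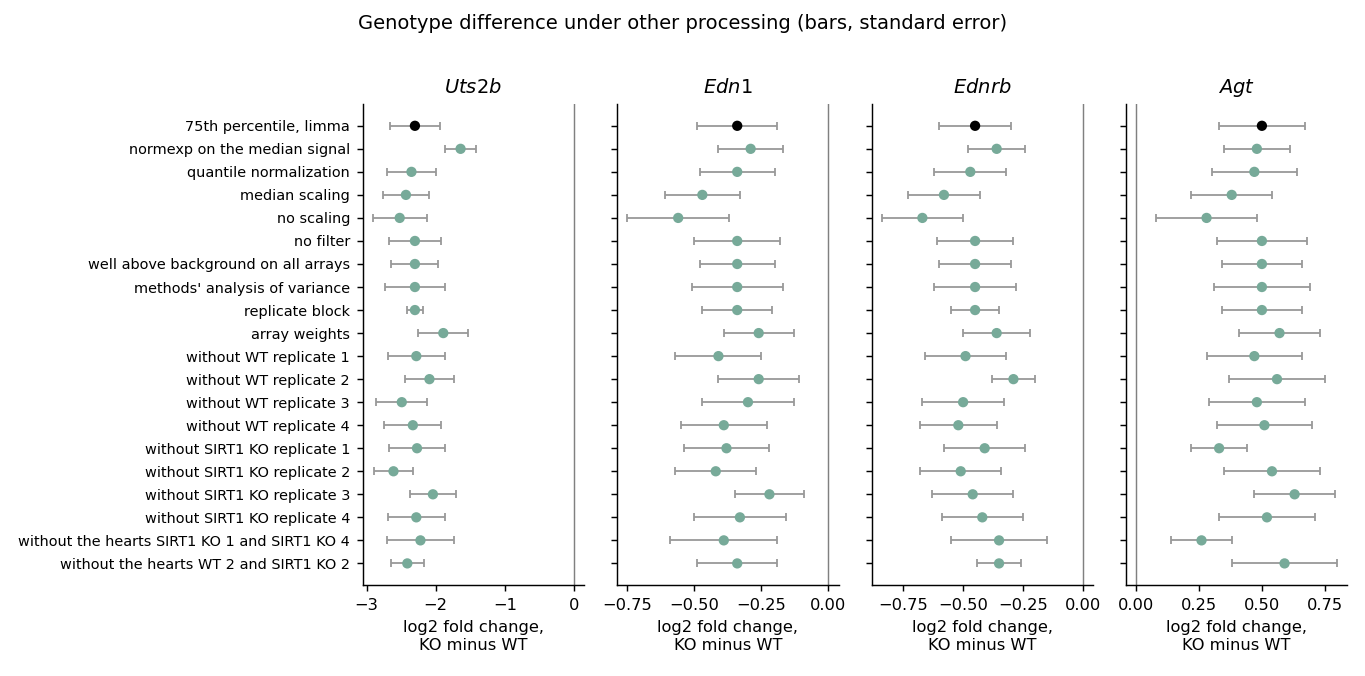
Log2 fold change (hearts labelled SIRT1 KO minus WT, with its standard error) of Uts2b, Edn1, the dimmer Ednrb probe and Agt under the reported processing (black) and the other analyses (green). Each panel has its own axis; no value crosses 0, and Uts2b lies between -2.61 and -1.64.

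The other genes of these pathways were taken from lists compiled from general knowledge, 87 genes in 6 lists, of which 84 have a named probe and 60 were tested. Of the 60, 5 were higher past an adjusted p of 0.05 and 1 was lower, which is 8.33% and 1.67%. Over 13594 genes tested with 1 probe each, 3.69% were higher and 0.897% lower. Dim probes were called higher more often, with 7.75% of the 8538 probes of lowest mean signal, and 4 of the 6 genes called here (Ecel1, Uts2r, Vipr1 and Npy) are measured by such probes. The median difference of the 60 genes was -0.01, with 28 higher and 32 lower, as was the median over the genes tested. The split depends on the processing, with 6 higher and 4 lower under normexp background correction, 5 higher and 7 lower when arrays were scaled to their median, and 5 higher and 15 lower without scaling. The hearts labelled SIRT1 KO alone carried Vipr1 and Npy through the filter of 4 or more hearts. Among the 52 genes with a probe well above background on all arrays, 3 were higher and 2 lower.

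In the urotensin system the receptor rose while the ligand Uts2b was lower. Uts2r (A_51_P292016) read -3.63, -3.56, -3.59 and -3.57 in the WT hearts and -3.33, -2.97, -2.99 and -2.87 in the hearts labelled SIRT1 KO. All 4 of the latter lay above all 4 WT values, and the log2 fold change was 0.55 (SE 0.10, limma adjusted p = 0.0187). Without scaling the log2 difference was 0.33. It passed in 12 of 19 alternatives. It failed without WT replicate 1, 2 or 3 (adjusted p = 0.0513, 0.0516 and 0.0578), without SIRT1 KO replicate 2 (adjusted p = 0.0565), with quantile normalization (adjusted p = 0.0524), with the methods' analysis of variance (adjusted p = 0.059) and without both replicates 2 (adjusted p = 0.128, the highest). Uts2, the gene of urotensin II itself, was well above background in 2 WT hearts and no heart labelled SIRT1 KO, and was not tested.

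In the endothelin list 1 of 5 tested genes passed. Ecel1, a metallopeptidase related to Ece1 and known from neurons, read -3.76, -3.81, -3.59 and -3.58 in the WT hearts and -3.06, -3.02, -2.96 and -3.13 in the hearts labelled SIRT1 KO. It rose by a log2 fold change of 0.64 (SE 0.08, limma adjusted p = 0.00383), with no overlap, and passed in all 19 alternatives, with a smaller log2 difference of 0.33 under normexp and 0.42 without scaling. Edn2, Ece2, Mme and Kel did not pass on their brightest probes, with log2 fold changes between -0.29 and 0.49. A dimmer probe of Mme (neprilysin, which degrades small peptides), named after its values were seen, read lower, while the brighter one differed by -0.29. That dimmer probe was well above background in 4 WT hearts and 1 heart labelled SIRT1 KO. The WT hearts alone carried it through the filter for testing, so neither a size nor a p-value is given for it. Edn3 was well above background in at most 1 heart and was not tested.

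The renin-angiotensin list had 12 of 16 genes tested and none past the threshold with limma, while 5 had an unadjusted p under 0.05. The smallest p belonged to Agtrap, whose product binds the angiotensin receptor Agtr1a, with a log2 fold change of 0.28 (SE 0.08, limma adjusted p = 0.0834). Renin itself (Ren1) read from -5.22 to -3.69 in the WT hearts and from -7.09 to -3.90 in the others, and it was well above background in only 2 hearts labelled SIRT1 KO. Agtr1b, Mas1 and Nr3c2 were well above background in no heart. By the methods' analysis of variance 0 of the 12 passed.

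Among other vasoactive peptides and their receptors 3 of 18 tested genes passed with limma as higher and 0 as lower. At an unadjusted p under 0.05 there were 7, the methods' analysis of variance called 2, and 9 of the 18 were lower in value. Bdkrb1, the bradykinin B1 receptor, had the clearest difference, with 0.73, 0.59, 0.69 and 0.57 in the WT hearts and 1.49, 1.71, 1.48 and 1.54 in the hearts labelled SIRT1 KO. Its log2 fold change was 0.91 (SE 0.08, limma adjusted p = 0.00122), a 1.88-fold rise that passed in all 19 alternatives. Vipr1, a receptor of vasoactive intestinal peptide, was well above background in no WT heart and in all 4 hearts labelled SIRT1 KO. On the values scaled to the 75th percentile it was at least 2.60-fold higher there (limma adjusted p = 0.00562). With normexp background correction the fitted log2 difference was only 0.65, which lies under this bound, so the bound holds for the scaled values alone. It takes, for each WT heart, the dimmest signal still well above background on its array, or the Vipr1 signal if greater.

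Npy, neuropeptide Y of sympathetic nerves, read -5.54, -5.17, -5.42 and -5.49 in the WT hearts and -4.71, -3.53, -4.56 and -4.54 in the others. It was well above background in 1 of the 4 WT hearts and in all 4 labelled SIRT1 KO. The hearts labelled SIRT1 KO alone carried it through the filter for testing, 4 or more hearts well above background, so its call is a description only. It was higher in these hearts (limma adjusted p = 0.0383), by an amount not given because 3 WT readings were not well above background. It passed in 9 of the 18 alternatives that could be run for it. It failed without WT replicate 1, 2, 3 or 4, without SIRT1 KO replicate 4, without SIRT1 KO replicates 1 and 4, with quantile normalization, without the filter and, at the highest adjusted p of 0.123, with the methods' analysis of variance. The sympathetic markers Th and Dbh were well above background in no heart, and of the 8 genes in the autonomic neuron list 3 were tested and 0 passed with limma or with the methods' analysis of variance, with 1 at an unadjusted p under 0.05. That gene was Elavl4, a neuronal RNA-binding protein, at -0.46 with no overlap, and the summed signal of the list was 0.307 to 0.385 in the WT hearts and 0.268 to 0.316 in the hearts labelled SIRT1 KO. Sox10 and Foxd3, markers of neural crest and Schwann cells, also rose, by 0.80 (adjusted p = 0.0199) and 0.60 (adjusted p = 0.0225), both from limma. Both are measured by probes among those of lowest mean signal, of which 7.75% were called higher. Foxd3 was well above background in 3 of the 4 WT hearts, so its 0.60 is a fitted value that includes a WT reading not well above background. With the methods' analysis of variance 0 of the neural crest and Schwann cell list passed. Of its 7 genes 4 were tested, with S100b at 0.03 not past the threshold, and Erbb3 and Cdh19 were well above background in no heart. The summed signal of the list was 0.714 to 0.797 in the WT hearts and 0.838 to 0.955 in the hearts labelled SIRT1 KO, and its part in the rise of Npy and Ecel1 was not tested.

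In the list of nitric oxide and cyclic GMP genes 1 of 7 passed. Ddah1, which breaks down an inhibitor of the nitric oxide synthases, fell by 0.30 on the log2 scale (SE 0.07, limma adjusted p = 0.0372), from values of -0.83 to -0.68 to values of -1.06 to -1.01. It passed in 8 of 19 alternatives, with adjusted p-values up to 0.217, and failed with the replicate number as a block (limma adjusted p = 0.079). With 1 heart left out it passed only without SIRT1 KO replicate 3. Its dimmer probe differed by -0.19. Of the 17 genes of Gq and G12 coupling and receptor regulation none passed with limma, 6 had an unadjusted p under 0.05, and the smallest p was that of Rgs4, a brake on Gq signaling, with -0.46 (SE 0.15, limma adjusted p = 0.124). By the methods' analysis of variance 0 of these 17 passed.

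**Figure D5:**
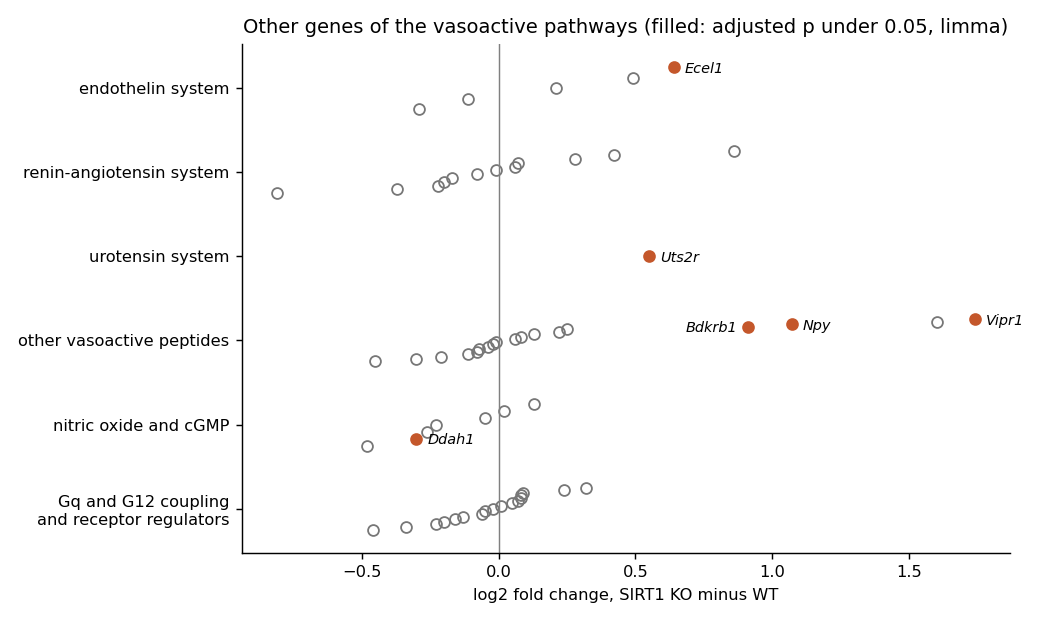
Log2 fold change, hearts labelled SIRT1 KO minus WT, of 60 other genes of the vasoactive pathways on their brightest probes, by list. Filled points passed an adjusted p of 0.05 with limma: Ecel1, Uts2r, Bdkrb1, Npy and Vipr1 rose, and Ddah1 fell; the Vipr1 and Npy points are fitted values that include WT readings not well above background.

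The genes whose signal over the 8 hearts was most like that of the peptide precursor genes are given as a description. All values share the arrays and their scaling, and the likeness is Pearson's r of log2 signal over 8 hearts across 20162 named probes. With so many probes and 8 hearts, the highest r is large from the search alone. For Uts2b the most alike genes were Limk2, Gdf6 and Cd93, each with r = 0.97. Their r was 0.88, 0.90 and 0.85 once the genotype means were removed. For Edn1 they were Adamts19 and Itgb6, each with r = 0.98, and Eps8 with 0.97. Within the genotypes their r was 0.98, 0.97 and 0.95. For Agt they were Vpreb1 and Selenop, each with r = 0.97, and Cpne1 with 0.96, and r within the genotypes was 0.93, 0.93 and 0.94.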

How the data were processed

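Mouse hearts at E18.5, 4 WT and 4 SIRT1 KO, were each measured on an Agilent one-color whole-genome array. The authors deposited the processed intensity of every spot as Agilent Feature Extraction wrote it (version 12.0.0.7 per the file headers), background-subtracted and not scaled between arrays. The deposited table of the whole series holds the same intensity values in 100% of spots.

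Here log2 intensity minus the 75th percentile of the array was averaged over the spots of a probe, without control and outlier spots, which gave 41174 probes. Unversioned accessions named 28223 of them (68.5%) through RefSeq names of GRCm38.p6, used otherwise only for gene order and promoter sequences. The 25616 probes that were well above background in 4 or more of 8 hearts were tested with limma 3.58.1 in R 4.3.3 and Benjamini-Hochberg adjustment at 0.05. A gene of a list is given by its brightest probe. Marker sums add the linear signals of tested markers and count a signal not well above background as 0. Python 3.11.15, numpy 2.4.6, pandas 2.3.3 and matplotlib 3.10.9 were used.

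The members and lists were chosen with earlier results of these data known. Some genes of the lists are not reported here. Named were every member on every probe, in each related list the genes past the threshold or otherwise the 1 with the smallest p, and the 3 genes most like Uts2b, Edn1 and Agt. Other related, marker and neighbouring genes that the text names were chosen after their values were seen. The methods' analysis of variance was run with genotype as its only factor. In simulated arrays, limma recovered 79% of 200 probes changed by a log2 fold change of 1 among 25535, with 4.82% false calls.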

Additional observations from a re-analysis of the deposited data

Results flagged for a closer look

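Each of the 12 member probes well above background was checked in each genotype for a heart that lies far from the other 3, by the gap to its nearest neighbour over the whole range, against Dixon's 95% critical value. Chance flags about 1 in 20 groups, and 2 of 24 were flagged. On the dimmer Ednra probe (A_51_P457734) SIRT1 KO replicate 3 stood at -3.05 with the other 3 hearts at -4.32 to -4.16. On the dimmer Ednrb probe (A_51_P262964) WT replicate 2 stood at -0.26 with the other 3 WT hearts at -0.94 to -0.84. The brighter Ednra probe showed no such gap for SIRT1 KO replicate 3, which read 3.71 there among values of 3.48 to 3.70. On the brighter Ednrb probe WT replicate 2 was again the highest heart, at 1.0.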

How the results depend on the processing

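Uts2b was lower under all 19 alternatives, by -2.61 to -1.64, and -1.64 came with normexp on the median signal. The members were chosen by this comparison, so the following counts are a description. Among the member probes 2 passed with normexp (Agt beside Uts2b) and 2 without scaling (Ednrb beside Uts2b). None, 0, passed with the methods' analysis of variance or without SIRT1 KO replicates 1 and 4, and 1 passed in each of the 8 fits that drop a single heart. The members not past the threshold kept their sign in all alternatives for Edn1, Agt, the dimmer Ednrb probe and the brighter Agtr1a probe. The dimmer Ednra and Agtr1a probes turned sign with quantile normalization, median scaling and no scaling, and Ace turned, to -0.02, without scaling.

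Over all probes the count past the threshold was 1250, with 81.36% higher. It was 2630 with normexp, 6347 without scaling, 546 with the methods' analysis of variance, 2280 with array weights, 645 without SIRT1 KO replicates 1 and 4 and 344 without WT and SIRT1 KO replicates 2. With 1 heart left out it ranged from 657, without WT replicate 3, to 1825, without SIRT1 KO replicate 3. Quantile normalization, median scaling and unscaled values gave a higher share of 63.94%, 38.28% and 10.04%, with median differences over all probes of -0.02, -0.12 and -0.21. Of the related genes 6 passed, against 10 with normexp (6 higher, 4 lower), 12 with median scaling (5 higher, 7 lower) and 20 without scaling (5 higher, 15 lower). With 1 heart left out it was 3 (without WT replicate 1, 2 or 3) to 7. Bdkrb1 and Ecel1 passed in all 19 alternatives. Vipr1 passed in the 18 that could be run for it, which leave out the filter for probes well above background on all arrays. The 75th percentile of the arrays was 939.4 to 1032.7 units for WT and 777.3 to 905.9 for SIRT1 KO, without overlap. Unscaled values keep this difference, and scaling to the 75th percentile removes it. The cause of these shifts was not tested. Normexp and the fits without several hearts were chosen after seeing the data, and the planned normexp on the mean signal was not run because the array files used here hold the median signal only.

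Same-numbered hearts of the 2 genotypes deviated together with r of 0.204, 0.207, 0.056 and 0.141 for replicates 1 to 4, and each heart correlated best with its own number, which is a hint from the data. The design text speaks of pairs, and the labels do not say what a number marks. With the replicate number as a block 1185 probes, 1 member probe and 6 related genes (6 higher, 0 lower) passed, and Uts2b stood at -2.30. Ddah1 lost its call under the block (adjusted p = 0.079). No slide block could be fitted, since each slide holds 1 genotype. Of the 13 member probes 12 were well above background in every heart, and the dimmer Ace probe in none.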
